A study of Homo sapiens with 5 samples.

Results

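Filaggrin (FLG) and 6 genes that share its cluster on chromosome 1 were examined in MDA-MB-231 cells treated with SAHA. The other members are CRNN, RPTN, IVL, SPRR1A, SPRR1B and SPRR3. They were taken as the probe sets that the array annotation assigns to these symbols, which gave 9 probe sets for all 7 genes, of 54675 probe sets and 19775 genes in all. FLG was selected on its fold after SAHA, the highest of all genes, and the others because they encode cornified envelope proteins of the same cluster. The SAHA against DMSO values of the 7 genes therefore describe them. No p is given for them, and their intervals and counts of calls come from the fit across all genes as a description.

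MDA-MB-231 is an established human breast cancer line of mesenchymal appearance. SAHA (suberoylanilide hydroxamic acid, vorinostat) inhibits histone deacetylases. DMSO, the solvent, was given alone to the cells of 3 arrays, and SAHA at 2 uM to those of 2 arrays, each for 30 h. Both groups share the line and the medium, no genetic change is labelled in either, and nothing in the labels says whether replicates came from separate cultures, so every test below measures only the spread between these arrays. A transfection is named in the protocol for RNA extraction and nowhere else in the labels.

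The epidermal differentiation complex is a dense cluster of genes that keratinocytes switch on as they leave the basal layer and build the dead outer layer of skin. Filaggrin is made as a large precursor stored in granules, cut into repeats that bundle keratin filaments, and finally broken down to amino acids that hold water in the skin. Involucrin and the small proline-rich proteins are sewn together by transglutaminases into the cornified envelope, the tough shell that replaces the cell membrane. FLG, CRNN (cornulin) and RPTN (repetin) belong to the S100-fused proteins, which join a calcium-binding S100 domain to long repeats.

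In these cells FLG rose from a dim level to a bright one after SAHA, and none of the other 6 members came near it. Intensity of the FLG probe set was 88.2, 90.1 and 81.8 on DMSO 1, 2 and 3, and 5479 and 4735 on SAHA 1 and 2. Both SAHA arrays lay far above all DMSO arrays, and the 3 DMSO readings were close together. The mean log2 intensity went from 6.44 ± 0.07 (SD, n = 3) to 12.31 ± 0.15 (SD, n = 2). The SAHA minus DMSO difference was 5.88 ± 0.08 (SE) on the log2 scale, a fold of 58.8 with a 95% interval of 50.4 to 68.7 from the fit across all genes. SAHA 1 read 1.16 times SAHA 2, a gap that is small beside the fold. FLG kept rank 1 among all genes in the fit under each of the 14 other settings tried, with log2 differences of 5.51 to 5.98. Rank 1 is what FLG was selected on, so keeping it is a description. Centring the arrays or adding a variance trend cannot move a rank.

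FLG is read by a single probe set on this array, so no other probe set bears on its value. Its DMSO level was just below the median log2 intensity of the DMSO arrays (6.49 to 6.50). The table holds no detection calls, so whether FLG was above background without SAHA is unknown and the fold is uncertain in size. ACTB control probe sets differed on DMSO 1 (3' minus 5' difference of 3.29 in log2 units, against 2.04 to 2.22 on the other 4 arrays). Without DMSO 1 the FLG difference was 5.89. Probe sets for the polyadenylated control RNAs had a median SAHA minus DMSO difference of 0.39, and with arrays centred on them the median of all genes moved from -0.03 to -0.40. FLG stood 5.91 above that median under both scalings, as it must, because centring shifts all genes of an array alike.

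**Figure D1:**
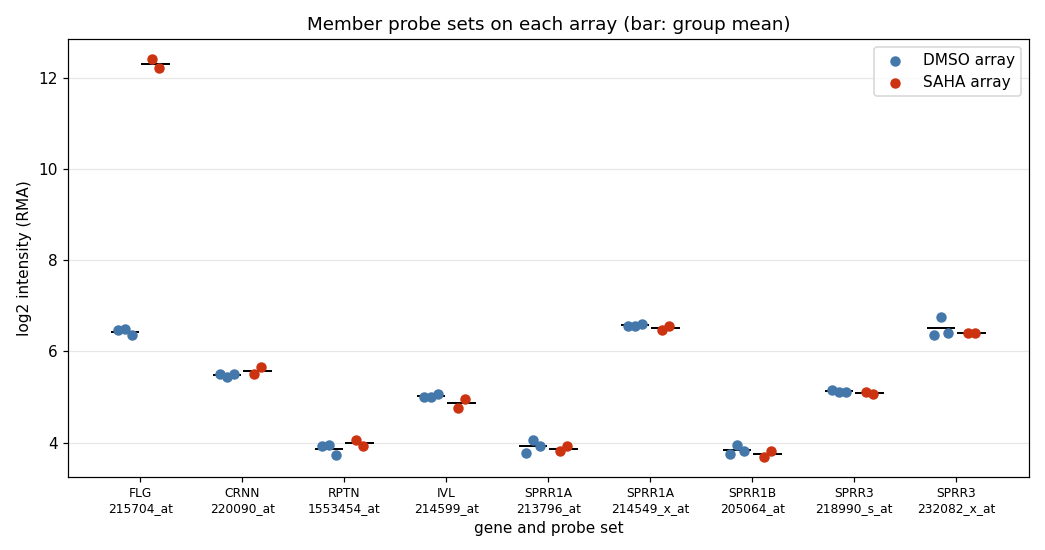
Log2 intensity (vertical axis) of the 9 member probe sets (horizontal axis) on each of the 3 DMSO and 2 SAHA arrays, with a bar at each group mean. FLG separates at a mean of 6.44 against 12.31, and in the other 8 probe sets both groups lie at nearly the same level.

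Among the S100-fused members, CRNN and RPTN stayed where they were. CRNN encodes a protein of squamous epithelium such as the oesophagus. On the DMSO arrays its log2 intensity was 5.50, 5.45 and 5.50, and with SAHA it was 5.50 and 5.65. RPTN, a protein of the epidermal granular layer, read 3.92, 3.95 and 3.72 in DMSO and 4.05 and 3.92 in SAHA. For both genes the SAHA readings overlapped those of DMSO. The log2 difference was 0.09 ± 0.06 (SE; 95% interval -0.07 to 0.25) for CRNN and 0.12 ± 0.09 (SE; -0.12 to 0.37) for RPTN, and with centring on the polyadenylated controls they were -0.28 and -0.25. In fold terms the upper ends of these intervals were 1.19 and 1.29, far from the 58.8 of FLG.

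IVL encodes involucrin, an early scaffold of the envelope. It read 5.00, 5.00 and 5.06 in DMSO and 4.77 and 4.95 in SAHA. Both SAHA arrays were slightly below all DMSO arrays, and the log2 difference was -0.16 ± 0.07 (SE; 95% interval -0.35 to 0.03). Without SAHA 1 it was -0.065, and without SAHA 2 it was -0.25 and past the threshold for a call. With centring on the polyadenylated controls it was -0.53.

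The small proline-rich proteins, which bridge other envelope proteins, also showed no rise. SPRR1A on its brighter probe set read 6.55, 6.56 and 6.61 without SAHA and 6.48 and 6.55 with it. Its dimmer probe set read 3.77, 4.05 and 3.92 against 3.82 and 3.92. SPRR1B read 3.74, 3.95 and 3.81 in DMSO and 3.69 and 3.81 in SAHA. In each of these 3 probe sets the groups overlapped. SPRR3, best known from the oesophagus, read 6.37, 6.75 and 6.40 in DMSO and 6.40 on both SAHA arrays. On its other probe set it read 5.16, 5.11 and 5.11 against 5.11 and 5.06. DMSO 2 alone was high on the brighter SPRR3 probe set, and without it the difference was 0.02 in place of -0.10. Log2 differences were -0.06 ± 0.05 (SE; 95% interval -0.18 to 0.06) for SPRR1A, -0.08 ± 0.08 (SE; -0.29 to 0.13) for SPRR1B and -0.10 ± 0.13 (SE; -0.45 to 0.25) for SPRR3. With centring on the polyadenylated controls they were -0.43, -0.45 and -0.48. The brighter SPRR1A and both SPRR3 probe sets carry names ending in _x_at or _s_at, which mark probes that can match several transcripts.

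A gene was called higher or lower when the Benjamini-Hochberg adjusted p of limma's two-sided test over all 19775 genes was under 0.05. FLG was the 1 member of 7 called higher, beside 14% of all genes, and 0 members were called lower (15.6% of all genes, and 29.6% either way). With centring on the polyadenylated controls 5 of the 6 neighbours (all but RPTN) were past the threshold and lower, where 73.6% of all genes were, and without SAHA 2 IVL alone was. FLG was also the 1 member higher by 2-fold or more (3.22% of all genes). Both SAHA arrays lay above all DMSO arrays for FLG alone (22.1% of all genes) and below them for IVL alone (26.0% of all genes). These counts use the contrast by which the members were chosen and carry no weight as evidence. DMSO means of the 6 neighbours ran from 3.83 to 6.57, so all lay near or below the array median. At such levels a small rise could go unseen.

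**Figure D2:**
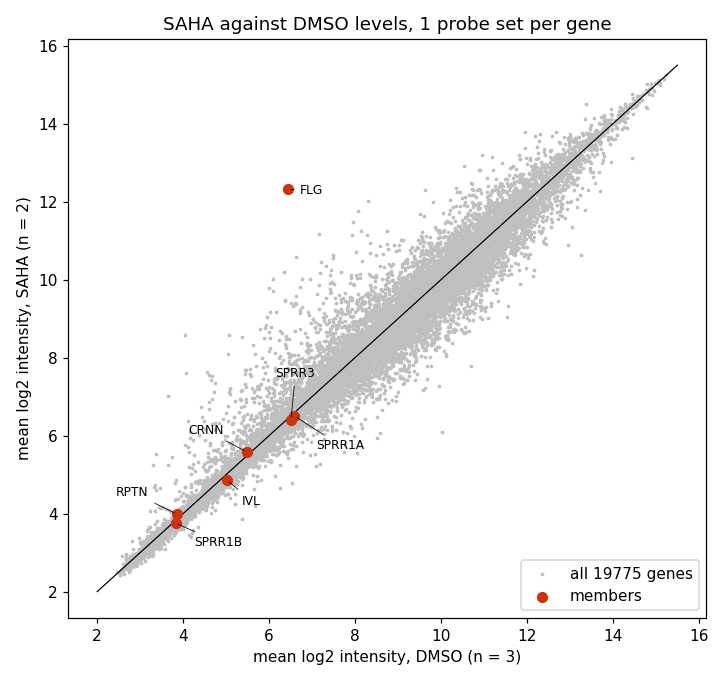
Mean log2 intensity in SAHA (vertical axis, 2 arrays) against DMSO (horizontal axis, 3 arrays) for all 19775 genes (grey) and the 7 members (red), with the line of equal level. FLG stands apart at 6.44 and 12.31, and the 6 others lie on the line between 3.75 and 6.57.

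The upstream sequences are shown because all 7 members hold a match to 1 pattern there. RefSeq (GRCh38.p14) gave an entry for all 7, and the 250 bases before the transcript start were searched on both strands for 8 short motifs. Those printed are FLG at chr1:152325240-152325489 (minus strand), its neighbour CRNN at chr1:152414264-152414513 (minus strand), IVL at chr1:152908296-152908545 (plus strand) and SPRR1A at chr1:152983831-152984080 (plus strand). Capitals mark matches to the AP-1 pattern TGANTCA, in which N is any base, and to the TATA box TATAAA.

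FLG: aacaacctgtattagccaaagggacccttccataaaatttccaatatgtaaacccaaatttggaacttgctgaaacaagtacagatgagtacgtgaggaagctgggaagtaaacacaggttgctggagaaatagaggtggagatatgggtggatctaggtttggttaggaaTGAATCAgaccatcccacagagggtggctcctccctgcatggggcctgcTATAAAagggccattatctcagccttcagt
CRNN: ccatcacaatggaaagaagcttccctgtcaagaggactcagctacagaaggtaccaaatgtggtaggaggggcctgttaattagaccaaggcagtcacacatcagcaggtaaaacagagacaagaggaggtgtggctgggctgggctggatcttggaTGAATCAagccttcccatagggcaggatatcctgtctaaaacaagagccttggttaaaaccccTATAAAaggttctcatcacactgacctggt
IVL: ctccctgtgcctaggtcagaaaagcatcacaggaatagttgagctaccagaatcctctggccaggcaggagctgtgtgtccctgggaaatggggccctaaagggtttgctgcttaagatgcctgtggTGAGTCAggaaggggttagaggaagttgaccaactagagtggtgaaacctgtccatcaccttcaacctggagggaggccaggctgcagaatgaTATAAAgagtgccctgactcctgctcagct
SPRR1A: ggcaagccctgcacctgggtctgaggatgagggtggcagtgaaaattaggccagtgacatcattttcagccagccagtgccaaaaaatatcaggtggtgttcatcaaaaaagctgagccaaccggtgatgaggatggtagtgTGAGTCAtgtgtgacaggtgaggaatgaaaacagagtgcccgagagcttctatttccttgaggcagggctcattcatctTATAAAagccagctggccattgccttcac

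The AP-1 pattern was found upstream of 7 of 7 members, against 6.57% of the 35116 RefSeq promoters searched over the same length. AP-1 factors, dimers of JUN and FOS proteins, are known regulators of involucrin and of other genes of the complex. Counted from the transcript start, the pattern began at -79 in FLG, -93 in CRNN, -95 in RPTN, -123 in IVL, -108 in SPRR1A and -170 in SPRR3, and SPRR1B held 2 copies at -141 and -111. TATAAA lay upstream of 6 of 7 members, beginning at -31 to -29, against 10.7% of all promoters, and SPRR1B had no match. CATTCC, the core bound by TEAD factors, was present in 4 of 7 (FLG, SPRR1A, SPRR1B and SPRR3) against 11.9%, and in FLG it overlapped the AP-1 match. TTGCNNAA, for C/EBP factors, was present in FLG alone among the members (9.05% of all promoters). GGGCGG (GC box), TGACGTCA (CRE), CACGTG (E box) and CCACACCC (KLF) were found in 0 of 7, against 42.6%, 1.65%, 6.34% and 2.97% of all promoters.

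The members' upstream windows were poor in CpG dinucleotides, with 0 to 2 each against a median of 11 over all promoters, and FLG had 1. GC content was 40.4 to 53.2% against a median of 58%. Of 36 other envelope and S100-fused genes of the complex with a RefSeq entry, 9 held the AP-1 pattern and 19 TATAAA. The AP-1 match was not the same in all members. On the strand of the gene it was TGAATCA in FLG and CRNN and TGAGTCA in IVL, SPRR1A and SPRR3. SPRR1B held both forms, and RPTN held TGATTCA, which is TGAATCA on the other strand. These matches describe letters only, and whether they bear on the FLG difference was not tested.

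**Figure D3:**
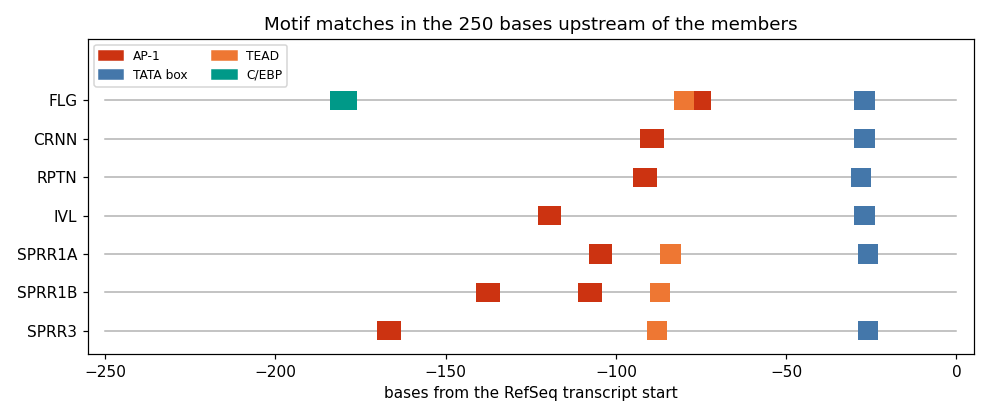
Position of motif matches (coloured boxes) in bases before the RefSeq transcript start (horizontal axis) for the 7 members (rows). An AP-1 match lies between -170 and -73 in every row, and a TATA box match near -30 in all rows but SPRR1B.

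Genes of the complex beyond the members followed the neighbours, not FLG. RefSeq lists 94 genes from S100A10 to S100A1, the ends taken here for the complex, of which 45 were measured, 38 of them not members. Of these 38, 0 were called higher by limma (14% of all genes) and 6 lower (15.6% of all genes), and at an unadjusted p under 0.05 the counts were 0 and 8. The share of all genes at that unadjusted threshold was not worked out here or below, so such counts have no background beside them. Their differences ran from -0.86 (S100A2) to 0.46 (the noncoding LINC01527) with a median of -0.08, against -0.03 over all genes. None reached a 2-fold change on the probe set that stood for the gene, as 5.76% of all genes did. The dimmer S100A6 probe set gave -1.41.

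The measured genes next to FLG showed no call, where 29.6% of all genes were called either way. HRNR, the coding gene that RefSeq places on the other side of FLG from FLG2, was not analysed here. FLG2, the filaggrin-like gene beside it, read 3.61 on all 5 arrays. That is dimmer than any reading of the members, so a small rise of FLG2 could go unseen. CCDST, also called FLG-AS1, is a long noncoding RNA whose RefSeq span encloses FLG on the opposite strand. It read 8.24, 8.20 and 8.04 in DMSO and 8.34 and 8.12 in SAHA, a difference of 0.07 ± 0.10 (SE; limma adjusted p = 0.638). Its other probe set gave -0.23, and with both averaged it was -0.077. Of the 5 measured genes on each side, TCHH, which encodes trichohyalin of the hair follicle, was the 1 called, and it fell. It read 5.96, 5.69 and 5.63 in DMSO and 5.29 and 5.15 in SAHA (-0.54 ± 0.12, SE; limma adjusted p = 0.0299). That call ended without DMSO 2, DMSO 3, SAHA 1 or SAHA 2 (limma adjusted p = 0.0899, 0.0666, 0.121 and 0.161). CRCT1, LCE3D, LINC00302, S100A10 and S100A11 gave differences of -0.15 to -0.01. CRCT1 was called higher without SAHA 1 (0.28, limma adjusted p = 0.019) and lower without SAHA 2 (-0.32, limma adjusted p = 0.0169).

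**Figure D4:**
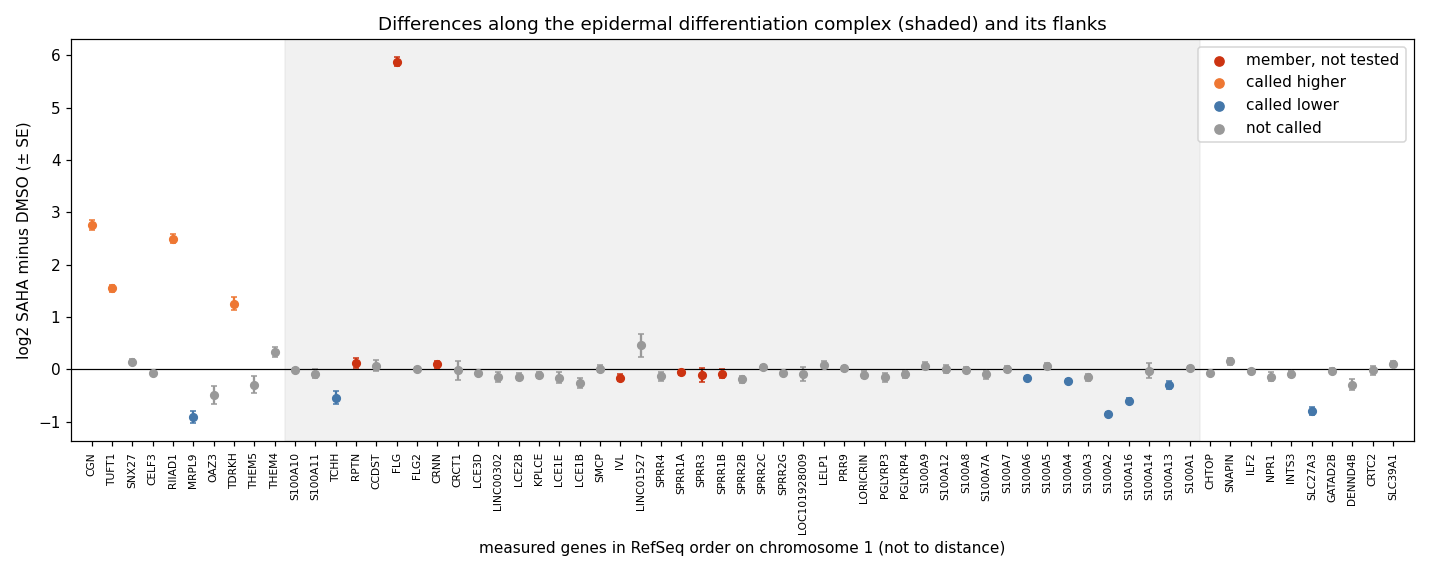
Log2 SAHA minus DMSO difference ± SE (vertical axis) for the 45 measured genes from S100A10 to S100A1 (shaded) and 10 measured genes on each side, in RefSeq gene order (horizontal axis, not to distance). FLG stands at 5.88 while every other gene in the shaded span lies between -0.86 and 0.46.

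By family the envelope genes of the complex gave the same picture. Across all genes 29.6% were called either way. Of 4 other SPRR genes measured, 0 were called, with SPRR2B at -0.19 ± 0.06 (SE) and SPRR4 at -0.13 ± 0.09 (SE) the farthest from 0 (limma adjusted p = 0.0759 and 0.326). Of 4 late cornified envelope genes (LCE), 0 were called, LCE1B giving -0.26 and LCE1E -0.16. Of 8 further genes, 0 were called, among them LORICRIN, the most abundant envelope protein of skin, which read 6.28, 6.28 and 6.32 in DMSO and 6.09 and 6.28 in SAHA. Without SAHA 2 LORICRIN gave -0.20 (limma adjusted p = 0.0425) and SPRR4 -0.26 (limma adjusted p = 0.0194). At an unadjusted p under 0.05, 0 genes of these 3 families were higher, and 1 SPRR and 1 LCE gene were lower.

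The S100 genes, small calcium-binding proteins that flank the envelope genes, held 5 of the 6 falls among the listed genes of the complex, the other being TCHH. Of 16 measured, 0 rose (beside 14% of all genes) and 5 fell (31.25%, beside 15.6%). S100A2, an S100 protein of basal epithelial cells, read 12.56, 12.55 and 12.56 in DMSO and 11.72 and 11.69 in SAHA, falling 1.81-fold (-0.86 ± 0.04, SE; limma adjusted p = 0.000609). S100A16 fell 1.51-fold (limma adjusted p = 0.00246). S100A13 (-0.30), S100A4 (-0.22) and S100A6 (-0.16) fell by less. Leaving out SAHA 1 or any 1 DMSO array ended the S100A13 call (limma adjusted p = 0.122 to 0.154), and S100A4 was not called without DMSO 1 or DMSO 2 (0.0536 and 0.0568). S100A6 (limma adjusted p = 0.0465) was not called without SAHA 1 or any 1 DMSO array (0.0752 to 0.118), and gave -0.79 with both probe sets averaged. With the S100-fused, SPRR, LCE, other envelope and S100 genes counted together, 6 of 34 measured fell and 0 rose, with a median of -0.09. The fallen share was 17.65%, near the 15.6% of all genes, and 14% of all genes rose. The fallen count was 3 without DMSO 1, DMSO 3 or SAHA 1, 2 without DMSO 2 and 11 without SAHA 2, and 1 rose without SAHA 1. With centring on the polyadenylated controls all 34 were called lower. Of all genes 6.88% were then called higher and 73.6% lower. Without dim genes 14 of the 34 stayed, 0 called higher and 28.6% lower, beside 22.9% and 26.8% of all genes.

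Genes that act on filaggrin showed no call. Profilaggrin is cut by proteases, citrullinated by PADI enzymes and degraded by BLMH and CASP14 among others. Of 16 measured, 0 were called by limma (29.6% of all genes either way), and at an unadjusted p under 0.05 1 was higher and 1 lower. PADI3, a citrullinating enzyme of upper epidermis and hair follicle, read 6.31, 6.38 and 6.19 without SAHA and 6.91 and 6.58 with it. The groups did not overlap, and the difference was 0.45 ± 0.12 (SE; limma adjusted p = 0.0537). It was called when quantile normalization was repeated, with centring on ribosomal protein genes, with probe sets averaged and without SAHA 2 (limma adjusted p = 0.0386, 0.0419, 0.0424 and 0.0429), and was 0.082 with centring on the polyadenylated controls. CAPN1, a calcium-dependent protease, gave -0.46 ± 0.14 (SE; limma adjusted p = 0.081), and was called lower with centring on ribosomal protein genes, on the polyadenylated controls and without dim genes, but gave -0.056 without shared-sequence probe sets. CASP14 gave -0.05, BLMH -0.03 and the protease ASPRV1 -0.02.

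Of 15 genes that cross-link or scaffold the envelope or make its lipids, 3 rose (20%, beside 14% of all genes) and 1 fell (6.67%, beside 15.6%). PPL, which encodes the plakin periplakin that anchors the envelope to desmosomes and keratin, rose 4.41-fold. It read 8.66, 8.24 and 8.56 in DMSO and 10.56 and 10.69 in SAHA (2.14 ± 0.14, SE; limma adjusted p = 0.00112). Its partner EVPL (envoplakin) fell, from 6.83, 6.76 and 6.78 to 6.48 and 6.47 (-0.32 ± 0.04, SE; limma adjusted p = 0.00636, and 0.0791 with the replicate number as a block). TGM2, the transglutaminase found in many tissues, rose 1.64-fold (0.71 ± 0.07, SE; limma adjusted p = 0.00324, and 0.25 on the log2 scale with its 4 probe sets averaged). The epidermal TGM1 and TGM3 gave -0.03 and -0.19 and were not called. ALOX12B, a lipoxygenase of the skin barrier, rose 1.62-fold (limma adjusted p = 0.0405), a call that ended when SAHA 2 or any 1 DMSO array was left out (0.101 to 0.142).

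Keratins of keratinocytes and corneodesmosome genes were mostly flat. Of 20 measured, 2 rose (10%, beside 14% of all genes) and 0 fell (beside 15.6%). KRT15, a keratin of basal cells, read 7.60, 7.55 and 7.63 in DMSO and 8.50 on both SAHA arrays, rising 1.88-fold (limma adjusted p = 0.000661). KRT80 rose 1.69-fold (limma adjusted p = 0.0098), and was not called without DMSO 3, SAHA 1 or SAHA 2 (0.0513 to 0.083). The differentiation keratins KRT1 and KRT2 gave -0.19 and -0.00057, and DSG1, DSC1 and CDSN, which hold cornified cells together, gave -0.07, -0.04 and -0.01. Over all 51 cornification genes outside the cluster, 5 rose (9.80%, beside 14% of all genes) and 1 fell (1.96%, beside 15.6%), with a median of -0.03. Without DMSO 3, 3 rose (5.88%, beside 8.95% of all genes). With the replicate number as a block 2 rose (3.92%, beside 6.38% of all genes) and 0 fell (beside 6.65%). With centring on the polyadenylated controls 42 were called lower (82.4%, beside 73.6% of all genes). Many of these genes are dim. Without dim genes 17 stayed, 23.5% of them called higher and 5.88% lower, beside 22.9% and 26.8% of all genes.

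No measured keratinocyte marker was called. Of 9 markers, 6 were measured and 0 were called (29.6% of all genes), also 0 at an unadjusted p under 0.05. Their summed intensity was 4383 to 4865 in DMSO and 4765 to 4898 in SAHA, nearly all of it from KRT10, which read 12.11 and 12.16 as group means. KRT5 read 6.49, 6.26 and 6.44 in DMSO and 6.39 on both SAHA arrays, and KRT14 read 4.51, 4.77 and 4.42 against 4.34 and 4.70. Markers of the line were bright, with VIM, CD44, AXL, CAV1, ZEB1 and MSN at DMSO means of 11.38 to 13.97. Of these 6, AXL and MSN were called lower (33.3%, beside 15.6% of all genes), at -0.33 and -0.37 (limma adjusted p = 0.0193 and 0.0116). Summed intensity of the 6 was 58190 to 58650 in DMSO and 49440 to 53880 in SAHA. The AXL call ended without DMSO 1, DMSO 3, SAHA 1 or SAHA 2 (0.065 to 0.0909), and the MSN call without DMSO 2 or SAHA 2 (0.0538 and 0.0577). With probe sets averaged MSN gave -0.15.

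Of 6 genes listed as low or absent in the line, PGR and FOXA1 lay below the array median (4.49 and 5.18 in DMSO) and ESR1 above it (7.01). The ESR1 value is from the brightest of its 9 probe sets, a shared-sequence one that can match several transcripts. ERBB2 and EPCAM read 9.02 and 10.28 and were called lower (-0.64 and -0.72, limma adjusted p = 0.0125 and 0.0102). CDH1 rose 3.11-fold from 4.67 (limma adjusted p = 0.00259), and by 0.77 rather than 1.64 on the log2 scale with both probe sets averaged. The ERBB2 call ended without DMSO 2, DMSO 3, SAHA 1 or SAHA 2 (0.0515 to 0.0936) and the EPCAM call without SAHA 2 (0.0657). ERBB2 gave -0.36 with probe sets averaged. Of the 6, 16.7% were called higher and 33.3% lower, beside 14% and 15.6% of all genes. What part these shifts have in the FLG result was not tested. Of 3 leukocyte markers CD14 rose by 0.87 and PTPRC fell by 0.34 on the log2 scale (33.3% each, beside 14% and 15.6% of all genes). CD14 gave 0.91 with the replicate number as a block and was then not called (limma adjusted p = 0.0606). PTPRC gave -0.013 without shared-sequence probe sets and was called only with DMSO 2, DMSO 3, SAHA 1 and SAHA 2 all kept.

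Of 27 measured transcription factors that direct epidermal differentiation, 7 rose (25.9%, beside 14% of all genes) and 4 fell (14.8%, beside 15.6%), with a median of 0.08. GRHL1, a grainyhead factor that acts on desmosomal genes, rose 3.87-fold, from 5.60, 5.32 and 5.82 in DMSO to 7.59 and 7.47 in SAHA (limma adjusted p = 0.00187; 0.94 on the log2 scale with both probe sets averaged, against 1.95). Its relatives GRHL2 and GRHL3 gave -0.02 and -0.05. Subunits of AP-1 split. JUN rose 1.54-fold (11.12, 11.40 and 11.40 against 11.94 and 11.92, limma adjusted p = 0.0138), JUNB rose by 0.54 and FOSL1 fell 1.89-fold (11.16, 11.14 and 11.24 against 10.28 and 10.25, limma adjusted p = 0.000812). ELF3, an epithelial ETS factor, rose 1.66-fold, and NOTCH1 and MAF fell by 0.57 and 0.51 on the log2 scale. With probe sets averaged NOTCH1 gave -0.32 and MAF -0.14, and MAF was then not called (limma adjusted p = 0.112). KLF4, a barrier factor, gave 0.08 and was not called.

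For these factors the risen count was 4 without DMSO 1 or DMSO 3 (14.8% in each, beside 10.5% and 8.95% of all genes). The fallen count was 2 without DMSO 3 (7.41%, beside 10% of all genes). Leaving out SAHA 1 or SAHA 2 ended the JUN call (limma adjusted p = 0.108 and 0.0911), as did leaving out shared-sequence probe sets (0.0867). JUNB (limma adjusted p = 0.0344) was called with DMSO 2 left out and not with any other array left out (0.075 to 0.172). MAF was not called without DMSO 1, DMSO 3 or SAHA 2 (0.0514 to 0.0583). ELF3 was not called without any 1 of the DMSO arrays (0.0643 to 0.0963). With the replicate number as a block 1 rose and 1 fell (3.7% each, beside 6.38% and 6.65% of all genes). With centring on the polyadenylated controls 2 rose and 15 fell (7.41% and 55.6%, beside 6.88% and 73.6% of all genes). Without dim genes 17 factors stayed, 41.2% of them called higher and 17.6% lower, beside 22.9% and 26.8% of all genes.

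**Figure D5:**
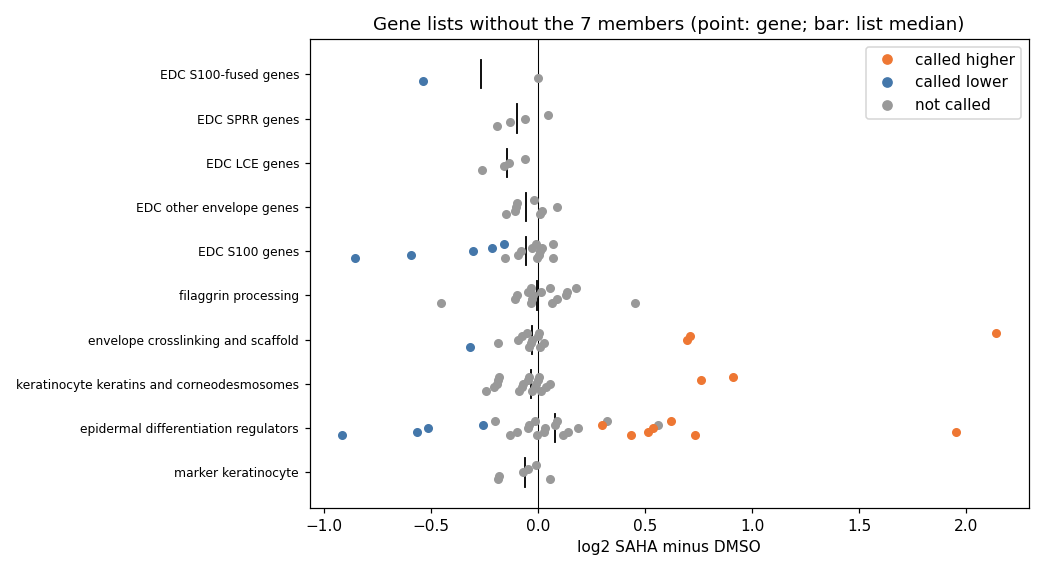
Log2 SAHA minus DMSO difference (horizontal axis) of each measured gene in 10 lists (rows), with the 7 members left out and a bar at each list median. The listed genes of the epidermal differentiation complex (EDC) lie between -0.86 and 0.09, and the points farthest to the right are PPL at 2.14 and GRHL1 at 1.95.

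The genes whose pattern over the 5 arrays was nearest to that of FLG lay elsewhere in the genome. Likeness was the Euclidean distance between log2 values centred on the DMSO mean. The nearest was ENPP5, a membrane ectonucleotidase family member, at 1.92, followed by DHRS2 (2.69), SHOC1 (2.72), FABP4 (2.79) and INHBA (2.92). ENPP5 differed by 4.55 ± 0.16 (SE) between the groups on the log2 scale, against 5.88 for FLG. With 2 treatment groups this distance mostly ranks genes by the size of their difference.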

How the data were processed

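Total RNA was measured on 5 single-colour arrays, 3 DMSO and 2 SAHA. The deposited values are intensity values on a linear scale, made with RMA in R 2.12 per the submitters' processing notes. In RMA the quantile step gives every array the same distribution, which hides any change in total RNA. The build is not given in the sources used here. Log2 was taken, and no further normalization was applied. Of 54675 probe sets, 41091 had 1 gene in the annotation, 1801 several, 11721 none and 62 were controls; the brightest probe set stood for its gene, with no filter on level. Symbols were updated through RefSeq for 41037 of the 41091. Listed genes without a probe set in that annotation were not analysed here.

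Groups were compared with limma 3.58.1 in R 4.3.3 (lmFit and eBayes, no covariates, two-sided, Benjamini-Hochberg over 19775 genes, threshold 0.05, with 3 residual and 1.62 prior degrees of freedom). The code was tested on simulated data, and figures were drawn with matplotlib 3.10.9. The number of arrays limits the precision. Alternatives covered scaling, dim genes (below the 40th percentile), probe set choice, variance trend, array weights, each array left out and a replicate block. Genes named were the members, up to 4 called genes with the largest difference in each list (or the 2 largest where 0 were called), 5 measured genes on each side of FLG and the 5 most like it. Further genes (TGM1, TGM3, KLF4, JUNB and those outside the complex in the closing section, among others) were picked with their values known. Members and lists were chosen with earlier results of these data known.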

Additional observations from a re-analysis of the deposited data

How the results depend on the processing

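FLG kept its direction and rank under every alternative run, rank 1 being the value it was chosen by. Its log2 difference was 5.77 to 5.98 with each array left out and 5.51 with centring on the polyadenylated controls. With each array left out, 1769 to 2234 of all genes were called higher and 1985 to 2797 lower, 0 to 1 and 2 to 11 of the other genes of the complex, 3 to 5 and 1 to 4 of the cornification genes outside it, and 2 to 6 and 2 to 3 of the regulators. With centring on the polyadenylated controls the counts higher and lower were 1361 and 14548 for all genes, 0 and 34 in the complex, 5 and 42 outside it and 2 and 15 for the regulators. Correlations of deviations with SAHA 1 were 0.15 for DMSO 1, 0.07 for DMSO 2 and -0.23 for DMSO 3. With only 2 SAHA arrays, those with SAHA 2 are the same values with the opposite sign. Whether the replicate numbers pair the arrays cannot be decided from these values, and the labels say no more of them. With the replicate number as a block FLG was 5.84, and the counts were 1262 and 1316, 0 and 3, 2 and 0, and 1 and 1 in the same order. Replicate 3 occurs only in DMSO, so the block gives the same differences as leaving out DMSO 3 (FLG fold of 57.15 in both). In the complex 3 genes fell with array weights (8.82%, beside 13.6% of all genes) and 3 without shared-sequence probe sets (10%, beside 12.3%). Outside it 2 fell with quantile normalization repeated and 2 with centring on ribosomal protein genes (3.92% in each, beside 16.6% and 16.5%). Without dim genes the 6 neighbour members drop out, so that setting gives no value for them. FLG stayed in through its SAHA arrays, its DMSO mean of 6.44 being below the 6.57 of SPRR1A, which dropped out. Among the members, signs turned for CRNN (-0.28) and RPTN (-0.25) with the polyadenylated controls and for SPRR3 (0.019 without DMSO 2). With the polyadenylated controls they also turned for CCDST (-0.30), KLF4 (-0.29), KRT10 (-0.32), CD44 (-0.14) and PGR (-0.35). Averaging probe sets gave -0.077 for CCDST and 0.15 for S100A10, quantile normalization repeated gave 0.0025 for BLMH and -0.010 for KRT10, array weights gave 0.00082 for KRT2 and 0.0049 for KRT5, and the replicate block gave 0.011 for BLMH and KRT5. With each array left out, values crossed 0 for CCDST (-0.041 to 0.18), CRCT1 (-0.32 to 0.28), S100A10 (-0.033 to 0.021), BLMH (-0.066 to 0.011), DSG1 (-0.21 to 0.065), GRHL2 (-0.065 to 0.035), KLF4 (-0.010 to 0.17), KRT14 (-0.23 to 0.13), KRT2 (-0.022 to 0.021), KRT5 (-0.077 to 0.039), PGR (-0.079 to 0.12) and TGM1 (-0.082 to 0.020). None of these genes was called with all arrays. Centring on the polyadenylated controls moved every gene down alike, FLG2 from 0 to -0.37, so small positive values turned there. Why the other signs turned was not tested. These fits rest on 4 arrays, and without a SAHA array the remaining one is assumed to vary like the DMSO arrays. Signal over background is unknown, which limits the dim neighbours most.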

Other observations

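Just outside the complex, on the S100A10 side, several genes rose, although the 38 non-member genes inside it did not. These genes were chosen after their values were seen. Of the 10 measured genes before S100A10, 4 rose and 1 fell by limma, and all 4 that rose did so by at least 2-fold, as 3.22% of all genes did. Among all genes 14% rose and 15.6% fell by limma. CGN, which encodes the tight junction protein cingulin, rose from a mean of 6.62 ± 0.11 (SD, n = 3) to 9.37 ± 0.12 (SD, n = 2), a log2 difference of 2.75 (limma adjusted p = 0.000491), and its other probe set gave 1.32. RIIAD1 rose by 2.50, TUFT1, which encodes tuftelin, by 1.55, and TDRKH, a Tudor domain protein of the piRNA pathway, by 1.26 (limma adjusted p = 0.000491, 0.000609 and 0.00331). Leaving out SAHA 1 ended the TDRKH call (limma adjusted p = 0.0511), and its other 2 probe sets gave 0.61 and 0.65. On the S100A1 side, 0 of 10 rose and 1 fell.

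Probe sets of 2 S100 genes gave different values. For S100A6 the probe set used gave -0.16 and the dimmer one -1.41, with both below DMSO on both SAHA arrays. For S100A10 they gave -0.01 and 0.31.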
